A study of Mus musculus with 8 samples.

Results

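The nuclear envelope is taken apart in mitosis and built again as cells enter G1, and 68 genes for its pores, its transport receptors and its lamina were followed through that transition among the 14861 genes of a PRO-seq table. PRO-seq reads engaged RNA polymerases over a gene, so the values report ongoing transcription and not the amount of protein or stored mRNA. Members were all genes whose symbols belong to the nucleoporin, importin, transportin, exportin, lamin, LEM domain, SUN and nesprin families, together with Ndc1, Tpr, Aaas, Seh1l, Emd, Lbr, Banf1 and Tmpo. The choice used gene names only, but it was made with earlier results of these data known. All 68 passed the minimum mean signal of 0.5 used for ratios. A single member, Syne4, was listed at 0 in a column (mitosis) and had no ratio there, which left 67 for comparisons with mitosis.

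The cells were mouse induced pluripotent stem cells of a clonal line that carries the FUCCI2 cell-cycle reporter, kept on a layer of irradiated feeders in medium with LIF and a pair of inhibitors, against MEK and against GSK3. The mitotic group was treated with nocodazole, a microtubule poison, at 200 ng/ml for 6 h and collected by shake-off. The early G1 and late G1 groups were treated in the same way and then released into fresh medium for 1 h and 3 h. Asynchronous cells were cycling and received no nocodazole, so exposure to the drug and position in the cycle cannot be told apart in comparisons with them. Per the labels each of the 4 groups had 2 libraries, but the table holds 1 combined value per gene and group. No difference below has a replicate check, no p-value can be given, the depth is unknown, and each value is the authors' value. In a bulk sample, fewer cells of a type and less RNA per cell cannot be told apart either. The labels do not use the names of the G1 columns, which were taken by meaning as the shorter and the longer release.

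The signal is normalized by a scaling that the sources used here do not give. Whether it is divided by gene length is not stated, so levels are compared between groups for the same gene. The exceptions are sums over marker genes, in which strong genes weigh most, and the genes of like level used below. Those were matched to the members on mean signal, without regard to gene span. Folds are ratios of (signal + 0.1), which understates the change of weak genes, and a gene is counted as higher or lower at 2-fold or more. The pluripotency markers were present, with 9 of the 10 listed markers in the table and none at 0. Their summed signal was 55.2 in mitotic cells, 1212 in early G1, 1099 in late G1 and 1120 for asynchronous cells. Of 22 fibroblast markers that would mark feeder cells, 13 were in the table. Their summed signal was 7.27 in mitotic cells, 199.9 in early G1, 174 in late G1 and 119.9 for asynchronous cells. Fn1 was the strongest of them in every column (3.26, 105.9, 61.3 and 53.4 in the same order). S100a4 and Twist1 were listed at 0 in mitosis.

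The pore is a ring of stacked protein assemblies. The outer ring, or Y complex, and the inner ring form the scaffold, phenylalanine-glycine nucleoporins fill the central channel, and filaments reach into the cytoplasm and, as the basket, into the nucleus. Importins carry cargo inward and exportins carry it outward, both powered by the gradient of the GTPase Ran, and importin alpha proteins link classical import signals to importin beta. Lamins line the inner membrane, where LEM domain proteins and the lamin B receptor tie them to chromatin, and SUN proteins and nesprins form the LINC complex that couples the nucleus to the cytoskeleton. In mitosis these assemblies come apart, and some nucleoporins and importins act at kinetochores and on spindle assembly.

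As a group the members peaked early. The highest of the 4 values was in early G1 for 51 of 68 members (75%), against 44.1% of all genes and 55.3% of the 7410 genes of like level, those with a mean signal between 6.30 and 36.1. Late G1 held the highest value for 9 members (13.2%, against 34.1% of all genes) and asynchronous cells for 8 (11.8%, against 21.8%). None peaked in mitosis, as was so for all but 0.00673% of genes. Of genes of like level 25.3% peaked in late G1 and 19.3% in asynchronous cells. With columns rescaled to equal medians the early peak held for 39 members (57.4%, against 26.3% of all genes and 34.5% of genes of like level). With quantile normalization it held for 34 (50%, against 28.8% and 31.5%). The authors' deposited table also sorts genes into temporal classes. Neither the method nor the values used for them are stated, so the classes are not taken as independent of the columns. The table put 38 members (55.9%) in Early_Spike, against 33.6% of all genes and 42.1% of genes of like level. Early_Plateau held 19 (27.9%), against 26.3% and 30%. Another 6 members (8.82%) were in Transient, against 24.7% and 15.9%, and 5 (7.35%) in Gradual, against 15.4% and 12%.

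**Figure D1:**
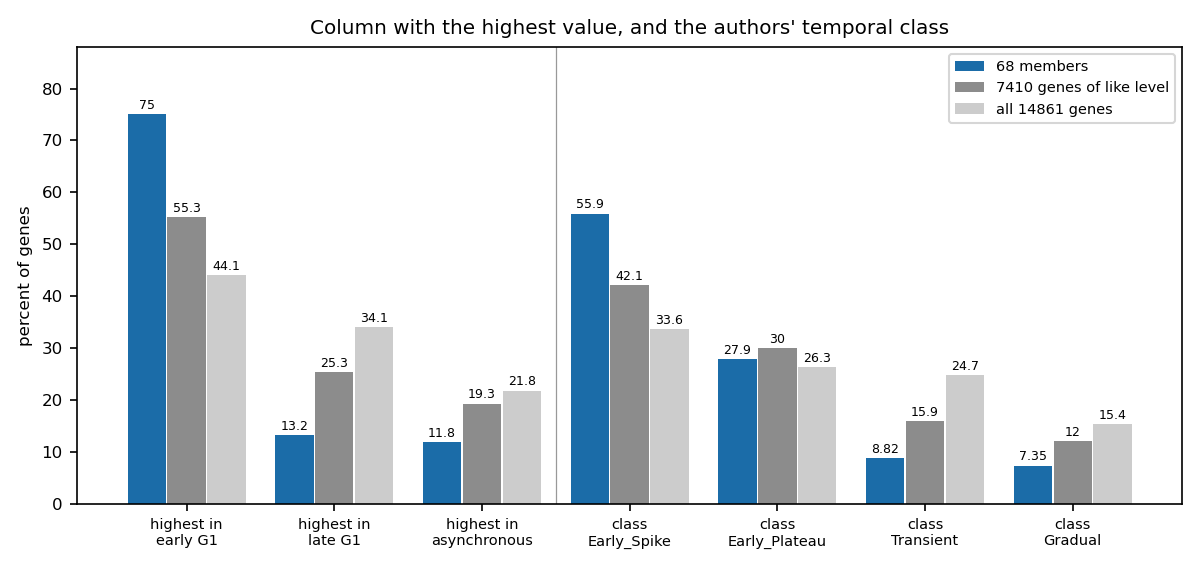
Percent of genes (vertical axis) whose highest value lies in early G1, late G1 or asynchronous cells (left of the line) and percent in each temporal class of the authors' deposited table (right). Blue bars are the 68 members, dark grey bars the 7410 genes of like level and light grey bars all 14861 genes; members stand at 75% for a peak in early G1, against 44.1% of all genes.

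In mitosis all 67 members with a ratio were at least 2-fold lower than in asynchronous cells, as were 99.1% of all genes. The members' median share of the asynchronous signal was 5.22%, close to the 5.36% of all genes, and the middle 50% of members ran from 4.65% to 6.41%, against 4.04% to 7.14% for all genes. Tpr, which encodes the scaffold filament of the nuclear basket, kept the most. Its signal was 1.80 in mitosis and 11.9 in asynchronous cells, or 15.1%. The start of Odr4, on the other strand, lies 447 bp away. Nup214, a nucleoporin of the cytoplasmic filaments, kept 11.4%, with 1.99 in mitotic cells, 30.4 in early G1, 20.7 in late G1 and 17.5 for asynchronous cells. Nupl2, also called Nup42, which works with the export factor Gle1 on the cytoplasmic face, kept 10.3% (1.65 in mitosis, 16.1 in asynchronous cells). Both of these face the cytoplasm, while the other cytoplasmic members, Aaas and Nup88, kept 6.61% and 5.91%.

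At the other end stood Ipo4, whose product imports histones and ribosomal proteins, with 0.0926 in mitosis and 13.6 in asynchronous cells, or 0.683%. Nup43, of the outer ring, kept 2.47%, with 0.383 in mitotic cells, 23.2 in early G1, 17.3 in late G1 and 15.5 for asynchronous cells. The LEM domain gene Lemd1 kept 2.95%, with 3.84 in mitosis and 129.9 in asynchronous cells. Syne4 was listed at 0 in mitosis beside 15.1 in asynchronous cells. The mitotic values are small numbers, so these shares rest on little signal. With columns rescaled to equal medians only 2 members were 2-fold lower and 2 were 2-fold higher. That rescaling sets the mitotic median (0.489) equal to the asynchronous median (9.43), so it removes by construction any drop that genes share. It shows which members departed from the typical gene and cannot test the drop itself.

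**Figure D2:**
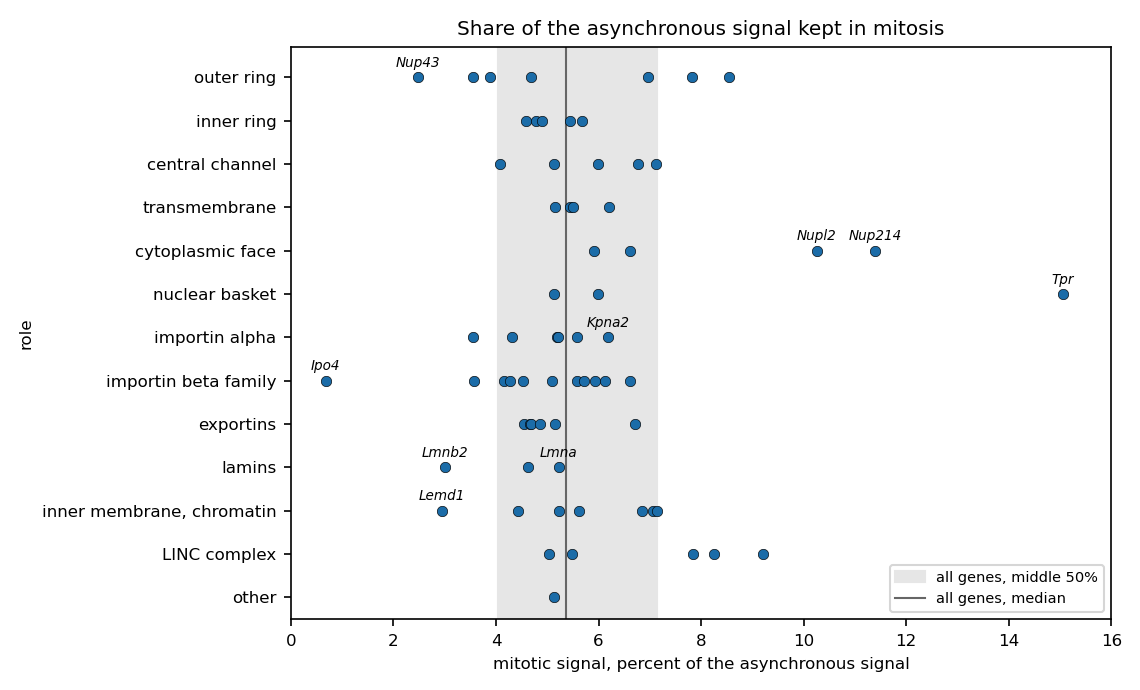
Mitotic signal as percent of the asynchronous signal (horizontal axis) for each member with a mitotic value above 0, by role (vertical axis). The line is the median of all genes with no value of 0 (5.36%) and the grey band their middle 50%; Tpr, Nup214 and Nupl2 lie to the right of the band and Ipo4 far to the left.

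In early G1, within the 1 h release, all 67 members with a ratio exceeded their mitotic signal at least 2-fold, as were 99.3% of all genes. The median member was 24.3-fold higher, against 18.5-fold for the median gene and 22.5-fold for genes of like level. Ipo4 had the largest fold, 63.1 (12.1 in early G1, 0.0926 in mitosis). It was followed by Nup43 at 48.1 (23.2 in early G1, 0.383 in mitosis) and Kpna4 at 41.9 (22.8 in early G1, 0.446 in mitosis). The smallest folds were 5.63 for Kpna7, 6.60 for Kpna2 and 10.9 for Tpr. The mitotic values of Kpna7 (0.0282, beside 0.622 in early G1) and Ipo4 (0.0926) are below the pseudocount of 0.1. Both folds are therefore understated, and the place of Kpna7 as the smallest depends on the pseudocount. Among role groups, medians ran from 15.9-fold for the lamins to 28.1-fold for the exportins.

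Set against asynchronous cells, early G1 was higher for 57 of 68 members by any amount (83.8%, against 63.7% of all genes and 72% of genes of like level). The median member stood 1.52-fold above its asynchronous level, against 1.23-fold for the median gene and 1.37-fold for genes of like level. At 2-fold or more 12 members were higher (17.6%), a share near the 17.7% of all genes and 19% of genes of like level, and 2 were lower (2.94%, against 9.53% and 5.73%). With equal medians these counts became 2 higher and 3 lower, and with quantile normalization 1 and 3, so the number of members past 2-fold rests on the authors' scaling. Of the 12 members, 10 were within 2-fold of the asynchronous level in late G1.

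Between early and late G1 most members were lower by under 2-fold. Late G1 was lower than early G1 for 55 of 68 (80.9%, against 53.8% of all genes and 65.1% of genes of like level). The median member was 1.33-fold lower, against 1.06-fold for the median gene and 1.21-fold for genes of like level. Few passed 2-fold: 5 were lower (7.35%, against 7.52% of all genes and 8.68% of genes of like level) and 2 higher (2.94%, against 15.1% of all genes and 6.91% of genes of like level). The counts were 3 lower and 3 higher with equal medians, and 2 and 2 with quantile normalization. The members also varied less among themselves than other genes. The middle 50% of their log2 ratios spanned 0.53, against 1.13 for all genes and 0.86 for genes of like level.

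**Figure D3:**
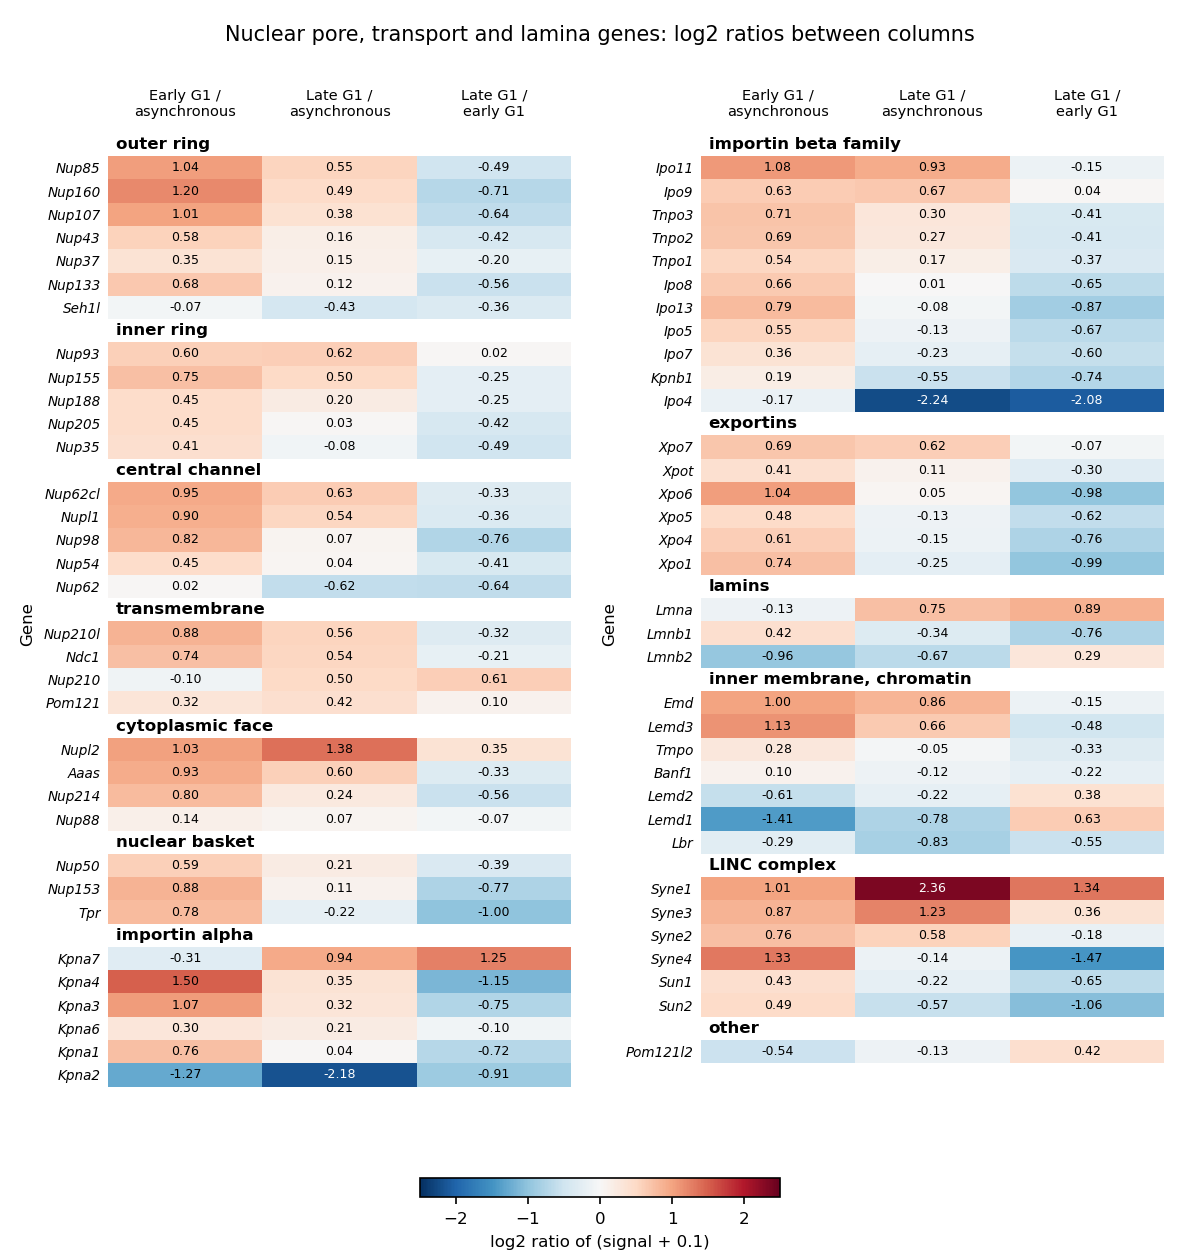
Log2 ratio of (signal + 0.1) for every member (rows, grouped by role) in early G1 over asynchronous cells, late G1 over asynchronous cells and late G1 over early G1 (columns), with red for higher and blue for lower. The first column is mostly red and the last mostly blue, with Kpna2, Ipo4 and Lemd1 below 0 in the first and Lmna, Kpna7 and Syne1 well above 0 in the last.

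The scaffold of the pore followed this pattern closely. All 7 outer ring genes were lower in late G1 than in early G1, by 1.15-fold (Nup37) to 1.64-fold (Nup160), and none reached 2-fold. Nup160, a subunit of the Y complex, had 0.806 in mitotic cells, 26.8 in early G1, 16.3 in late G1 and 11.6 for asynchronous cells. Nup85, another subunit, had 3.65 in mitotic cells, 96.1 in early G1, 68.4 in late G1 and 46.7 for asynchronous cells. Nup107 had 1.24 in mitotic cells, 29.5 in early G1, 19.0 in late G1 and 14.6 for asynchronous cells. These 3 exceeded asynchronous cells at least 2-fold in early G1 (2.30-, 2.06- and 2.02-fold), and all 3 were 1.30- to 1.46-fold higher in late G1. Seh1l, a subunit shared with a nutrient-sensing complex, was the exception in the ring, with 1.11 in mitotic cells, 27.3 in early G1, 21.2 in late G1 and 28.6 for asynchronous cells. The listed starts of Nup160 and Nup85 lie 11889 and 13552 bp inside the RefSeq gene, and how much of the gene their values cover is not given. Nup133 and Nup37 stood 1.60- and 1.28-fold above asynchronous cells in early G1.

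The 5 inner ring genes spanned a narrow range. They were 1.33- to 1.68-fold higher in early G1 than in asynchronous cells and stayed within 2-fold of them in both G1 groups. Nup93, which anchors the channel nucleoporins, had 0.558 in mitotic cells, 14.9 in early G1, 15.1 in late G1 and 9.82 for asynchronous cells, and was the only one of the 5 not lower in late G1 than in early G1. Nup35 was lowest relative to asynchronous cells in late G1, with 0.408 in mitotic cells, 11.9 in early G1, 8.41 in late G1 and 8.91 for asynchronous cells. Its listed start lies 21576 bp upstream of the RefSeq gene and 136 bp from the start of Dusp19 on the same strand, so its signal cannot be assigned to Nup35 with certainty. Nup155, Nup188 and Nup205 stood 1.02- to 1.42-fold above asynchronous cells in late G1.

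All 5 central channel genes were lower in late G1 than in early G1, by 1.25- to 1.69-fold. Nup62, the core of the channel complex, was within 1.02-fold of its own asynchronous level in early G1, with 2.80 in mitotic cells, 69.8 in early G1, 44.8 in late G1 and 68.8 for asynchronous cells. Its start is 4 bp from that of Il4i1, and the signal of Nup62 divided by that of Il4i1 was between 0.890 and 0.942 in all columns, so the pair kept nearly the same ratio in every group. Whether they share reads was not tested. Nup62cl, a paralog, had 0.138 in mitotic cells, 4.56 in early G1, 3.61 in late G1 and 2.30 for asynchronous cells. The other 3 (Nup54, Nup98 and Nupl1, also called Nup58) were 1.37- to 1.87-fold higher in early G1 than in asynchronous cells.

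The 4 transmembrane genes split in the step to late G1. Nup210, which encodes the pore membrane protein gp210, was 1.52-fold higher in late G1 than in early G1, and Pom121, which anchors the ring in the membrane, 1.08-fold higher. Pom121 had 1.24 in mitotic cells, 28.1 in early G1, 30.2 in late G1 and 22.5 for asynchronous cells. Ndc1 and the paralog Nup210l were lower, by 1.16- and 1.25-fold; Nup210l had 0.653 in mitotic cells, 19.4 in early G1, 15.5 in late G1 and 10.5 for asynchronous cells. All 4 stood 1.34- to 1.47-fold above their asynchronous level in late G1. Pom121l2, a POM121-like gene outside these roles, had 0.460 in mitotic cells, 6.12 in early G1, 8.20 in late G1 and 8.96 for asynchronous cells.

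On the cytoplasmic face, Nupl2 (chromosome 5, start at 24164963, plus strand) was higher in late G1 than in early G1, by 1.28-fold. It had 1.65 in mitotic cells, 33.0 in early G1, 42.2 in late G1 and 16.1 for asynchronous cells, which is 2.04-fold above asynchronous cells in early G1 and 2.61-fold in late G1. It was the only pore gene at least 2-fold from its asynchronous level in late G1. Nup88 was nearly level, with 1.24 in mitotic cells, 23.2 in early G1, 22.0 in late G1 and 20.9 for asynchronous cells. In the nuclear basket all 3 genes were lower in late G1 than in early G1. Tpr had 1.80 in mitotic cells, 20.6 in early G1, 10.2 in late G1 and 11.9 for asynchronous cells, so late G1 was 2.01-fold below early G1, just past the threshold. Nup153 was 1.70-fold lower and Nup50, which helps to release imported cargo, 1.31-fold lower, with 1.17 in mitotic cells, 34.5 in early G1, 26.4 in late G1 and 22.8 for asynchronous cells.

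The importin alpha genes differed widely from one another, with log2 ratios of early G1 over asynchronous cells between -1.27 (Kpna2) and 1.50 (Kpna4). Kpna2 (chromosome 11, start at 106999541, minus strand), which encodes the importin alpha that is abundant in pluripotent and dividing cells, was the only one below its asynchronous level in both G1 groups by 2-fold. It had 5.99 in mitotic cells, 40.1 in early G1, 21.3 in late G1 and 96.7 for asynchronous cells, which is 2.41-fold lower than asynchronous cells in early G1 and 4.53-fold lower in late G1. Kpna4 (chromosome 3, start at 69127113, minus strand) had the highest early G1 ratio of all members, with 0.446 in mitotic cells, 22.8 in early G1, 10.2 in late G1 and 7.99 for asynchronous cells. That is 2.83-fold above asynchronous cells in early G1, and late G1 was 2.21-fold lower than early G1. Kpna3, the closest relative of Kpna4, had 0.389 in mitotic cells, 15.8 in early G1, 9.36 in late G1 and 7.50 for asynchronous cells.

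Kpna1 and Kpna6 stood 1.69- and 1.23-fold above asynchronous cells in early G1 and 1.03- and 1.15-fold above in late G1. Kpna7, an importin alpha of oocytes and early embryos, had 0.0282 in mitotic cells, 0.622 in early G1, 1.62 in late G1 and 0.796 for asynchronous cells. Its late G1 value was 2.38-fold above early G1, but its listed start is 74394 bp upstream of the RefSeq gene and 124 bp from the start of Arpc1a on the other strand, so the signal cannot be assigned to Kpna7 with certainty.

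**Figure D4:**
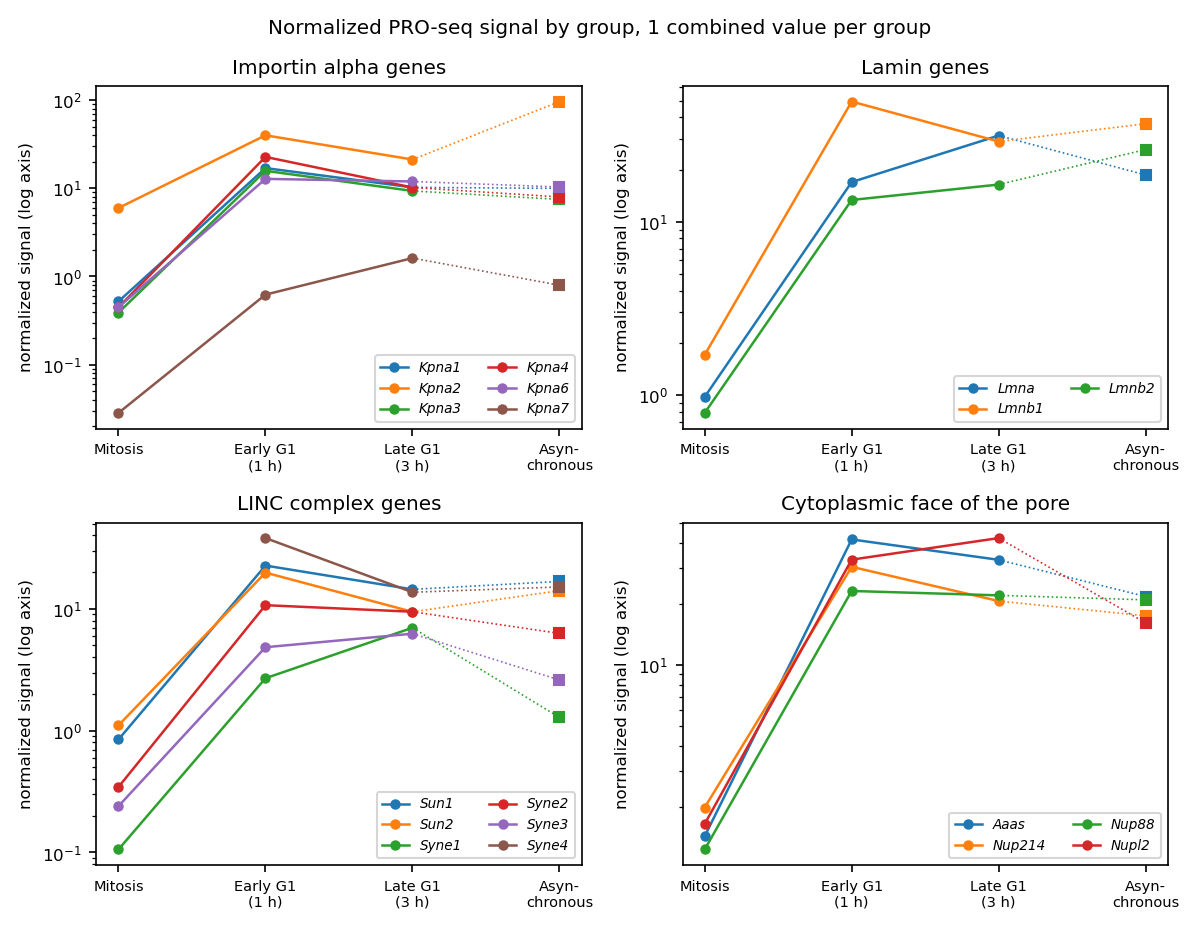
Normalized signal (log axis) of mitotic cells, both G1 groups and asynchronous cells (squares) for the importin alpha, lamin, LINC complex and cytoplasmic face genes, 1 combined value per group; the value of 0 for Syne4 in mitosis is not drawn. Kpna2 has its highest point in asynchronous cells (96.7), while Lmna, Syne1, Syne3, Nupl2 and Kpna7 have theirs in late G1.

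Among the 11 import receptors of the importin beta family, 10 were lower in late G1 than in early G1. Ipo4 (chromosome 14, start at 55635569, minus strand) lay furthest below asynchronous cells in late G1, with 0.0926 in mitotic cells, 12.1 in early G1, 2.78 in late G1 and 13.6 for asynchronous cells. It was near its asynchronous level in early G1 (1.12-fold lower), but was 4.22-fold lower in late G1 than in early G1 and 4.74-fold lower than in asynchronous cells. Kpnb1, the importin beta that works with importin alpha, was 1.67-fold lower in late G1 than in early G1 (40.8 in late G1, 68.1 in early G1). Ipo11 was higher than asynchronous cells in both G1 groups, with 0.709 in mitotic cells, 24.6 in early G1, 22.1 in late G1 and 11.6 for asynchronous cells. The other importins of this family, Ipo5, Ipo7, Ipo8 and Ipo13, were 1.51- to 1.82-fold lower in late G1 than in early G1. Ipo9 was the only one of the 11 higher in late G1 than in early G1, by 1.03-fold. The transportins Tnpo1, Tnpo2 and Tnpo3, the last an importer of splicing factors, were 1.46- to 1.64-fold above asynchronous cells in early G1 and 1.13- to 1.24-fold above in late G1.

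All 6 exportins were lower in late G1 than in early G1, by 1.05- to 1.99-fold. Xpo1, the general exporter of proteins with leucine-rich export signals, had 2.29 in mitotic cells, 74.5 in early G1, 37.3 in late G1 and 44.4 for asynchronous cells, and lay just short of the 2-fold threshold at 1.99-fold lower. Xpo6, the exporter of actin, had 0.709 in mitotic cells, 31.3 in early G1, 15.8 in late G1 and 15.2 for asynchronous cells, and was 1.98-fold lower. Xpo7 changed least in this step, with 0.471 in mitotic cells, 11.4 in early G1, 10.9 in late G1 and 7.03 for asynchronous cells. Xpo4, Xpo5, which exports microRNA precursors, and Xpot, which exports tRNA, were 1.33- to 1.53-fold above asynchronous cells in early G1. In late G1 they stood between 1.11-fold below and 1.08-fold above.

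The promoters of Kpna2 and Ipo4, the only members at least 2-fold below asynchronous cells in late G1, are shown with those of Kpna4 and Nupl2. Relative to asynchronous cells, Kpna4 was the highest member in early G1 and Nupl2 the highest pore gene in late G1. Each line gives the 250 bases before the RefSeq start (GRCm38.p6), with capitals at every match, on either strand, to TTTGAA (the CHR element known from promoters of genes active in G2 and mitosis), CCAAT (the NF-Y box) or the E2F-like TTCGCGC and TTTGGCG.
Kpna2 (chr11:106999526-106999775, minus strand): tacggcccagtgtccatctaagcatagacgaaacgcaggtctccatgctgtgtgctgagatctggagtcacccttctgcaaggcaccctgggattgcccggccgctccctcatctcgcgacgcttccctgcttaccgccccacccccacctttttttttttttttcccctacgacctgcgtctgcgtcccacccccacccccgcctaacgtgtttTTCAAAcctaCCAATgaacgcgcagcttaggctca
Ipo4 (chr14:55635685-55635934, minus strand): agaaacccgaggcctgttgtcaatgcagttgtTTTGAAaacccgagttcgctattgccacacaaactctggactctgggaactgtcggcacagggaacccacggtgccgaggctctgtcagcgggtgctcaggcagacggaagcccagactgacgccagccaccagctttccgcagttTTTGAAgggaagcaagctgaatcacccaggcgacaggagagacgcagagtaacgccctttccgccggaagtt
Kpna4 (chr3:69127093-69127342, minus strand): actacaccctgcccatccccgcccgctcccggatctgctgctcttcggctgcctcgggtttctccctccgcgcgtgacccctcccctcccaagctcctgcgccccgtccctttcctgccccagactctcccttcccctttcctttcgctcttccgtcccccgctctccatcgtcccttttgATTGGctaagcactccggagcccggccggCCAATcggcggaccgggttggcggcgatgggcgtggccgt
Nupl2 (chr5:24164713-24164962, plus strand): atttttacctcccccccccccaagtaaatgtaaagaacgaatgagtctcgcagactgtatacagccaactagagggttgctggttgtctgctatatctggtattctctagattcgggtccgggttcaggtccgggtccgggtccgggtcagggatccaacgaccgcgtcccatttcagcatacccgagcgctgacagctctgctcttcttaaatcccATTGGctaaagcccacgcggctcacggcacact
Kpna2 holds a CHR match from 35 to 30 bases before the start and a CCAAT match from 25 to 21 bases before it, and the 2 do not overlap. Ipo4 holds 2 CHR matches, which begin 218 and 72 bases before the start, and no CCAAT. The start used for Ipo4 (55635684) is downstream of the RefSeq gene edge (55635868), so the nearer match lies inside the annotated gene. The listed start of Ipo4 is 115 bp from the one used. Kpna4 has 2 CCAAT matches and Nupl2 has 1, neither with a CHR match, and none of the 4 windows holds either E2F-like motif. A promoter within 500 bp of the listed start was found for 49 members. A CHR match was present in 10 of them (20.4%), against 9.96% of 10282 promoters of genes in the table, and CCAAT in 26 (53.1%), against 36.3%. An E2F-like match was present in 1 (2.04%), against 4.5%. These matches are descriptions of the letters in each window.

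The 3 lamin genes each took a different course. Lmna (chromosome 3, start at 88503307, minus strand) encodes the A-type lamins, which are low in pluripotent cells and plentiful in differentiated ones. It had 0.972 in mitotic cells, 16.9 in early G1, 31.4 in late G1 and 18.6 for asynchronous cells, so late G1 was 1.85-fold above early G1 and 1.69-fold above asynchronous cells. Lmnb1, a B-type lamin, ran the other way, with 1.70 in mitotic cells, 49.4 in early G1, 29.0 in late G1 and 36.8 for asynchronous cells, or 1.70-fold lower in late G1 than in early G1. Lmnb2, the other B-type lamin, stayed below asynchronous cells, with 0.786 in mitotic cells, 13.3 in early G1, 16.4 in late G1 and 26.1 for asynchronous cells. It was 1.95-fold below asynchronous cells in early G1 and 1.59-fold below in late G1. None of the lamins passed 2-fold in these 3 comparisons, but with equal medians Lmna was 2-fold above early G1 (log2 ratio 1.00) and Lmnb2 more than 2-fold below asynchronous cells in early G1 (-1.28). Feeder fibroblasts also make A-type lamins. Of the 13 fibroblast markers 6 exceeded their early G1 signal at least 2-fold in late G1, against 15.1% of all genes. None was 2-fold lower (7.52% of all genes), but 5 were lower by any amount, among them Fn1 (105.9 in early G1, 61.3 in late G1). The summed signal of the 13 was 174 in late G1 and 199.9 in early G1. Fn1 and Tagln (47.2 in early G1, 30.2 in late G1) made up most of the early G1 sum. The sum therefore does not show the course of the weaker markers. The part of feeder cells in the Lmna values was not tested.

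Genes of the inner membrane and chromatin linkers split into some above and some below their asynchronous level. Emd, which encodes emerin, had 1.32 in mitotic cells, 37.5 in early G1, 33.8 in late G1 and 18.6 for asynchronous cells. Lemd3, which encodes the LEM protein MAN1, had 0.851 in mitotic cells, 27.3 in early G1, 19.6 in late G1 and 12.4 for asynchronous cells. These 2 stood 2.01- and 2.19-fold above asynchronous cells in early G1 and 1.81- and 1.57-fold above in late G1. Lemd1, a LEM domain gene, had 3.84 in mitotic cells, 48.8 in early G1, 75.6 in late G1 and 129.9 for asynchronous cells, which is 2.66-fold below asynchronous cells in early G1 and 1.72-fold below in late G1. Its listed start lies 10334 bp inside the RefSeq gene. Lemd2 also stayed below, by 1.52-fold in early G1 and 1.17-fold in late G1. Lbr, the lamin B receptor, had 1.27 in mitotic cells, 18.5 in early G1, 12.6 in late G1 and 22.6 for asynchronous cells, so it too was below asynchronous cells, by 1.22-fold in early G1 and 1.78-fold in late G1. Banf1, whose product BAF binds DNA and gathers the new envelope around chromosomes, and Tmpo, the gene of the LAP2 proteins, stayed within 1.22-fold of asynchronous cells in both G1 groups.

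The LINC complex genes differed in direction between late and early G1. Syne1, the gene of nesprin-1, had 0.106 in mitotic cells, 2.69 in early G1, 6.99 in late G1 and 1.28 for asynchronous cells. It was 2.54-fold higher in late G1 than in early G1 and 5.13-fold higher than in asynchronous cells, the highest late G1 ratio of any member. Its listed start (chromosome 10, 5194707, minus strand) lies 355985 bp inside a RefSeq span of 530501 bp, and how much of the gene its value covers is not given. Syne3, the gene of nesprin-3, had 0.240 in mitotic cells, 4.84 in early G1, 6.25 in late G1 and 2.60 for asynchronous cells, and was 2.35-fold above asynchronous cells in late G1. Syne2, the gene of nesprin-2, also with an internal start, was 1.69-fold above asynchronous cells in early G1 and 1.50-fold above in late G1.

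Syne4, the gene of nesprin-4, was listed at 0 in mitosis and had 38.1 in early G1, 13.7 in late G1 and 15.1 for asynchronous cells. It was 2.51-fold above asynchronous cells in early G1 and then 2.77-fold lower in late G1 than in early G1. The SUN genes, whose products span the inner membrane, were lower in late G1 too. Sun2 had 1.10 in mitotic cells, 19.8 in early G1, 9.44 in late G1 and 14.1 for asynchronous cells, with late G1 2.09-fold below early G1. Sun1 was 1.56-fold lower in late G1 than in early G1. With equal medians Sun2 and Tpr fell short of 2-fold (log2 ratios of -0.94 and -0.89).

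Over the whole set, late G1 was within 2-fold of asynchronous cells for nearly every member. Only 3 were at least 2-fold higher (Syne1, Nupl2 and Syne3, 4.41% against 16.9% of all genes and 11.9% of genes of like level) and 2 at least 2-fold lower (Ipo4 and Kpna2, 2.94% against 5.14% and 4.58%). The median member stood 1.10-fold above its asynchronous level, the same as genes of like level (1.10-fold), and the median gene 1.16-fold. The counts were 3 higher and 3 lower with equal medians, and 2 and 3 with quantile normalization. Syne3 lay just inside the threshold for higher genes at 2.35-fold and Kpna7 just outside at 1.92-fold. Kpna2 at 4.53-fold and Lbr at 1.78-fold were the nearest on either side of the threshold for lower genes.

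**Figure D5:**
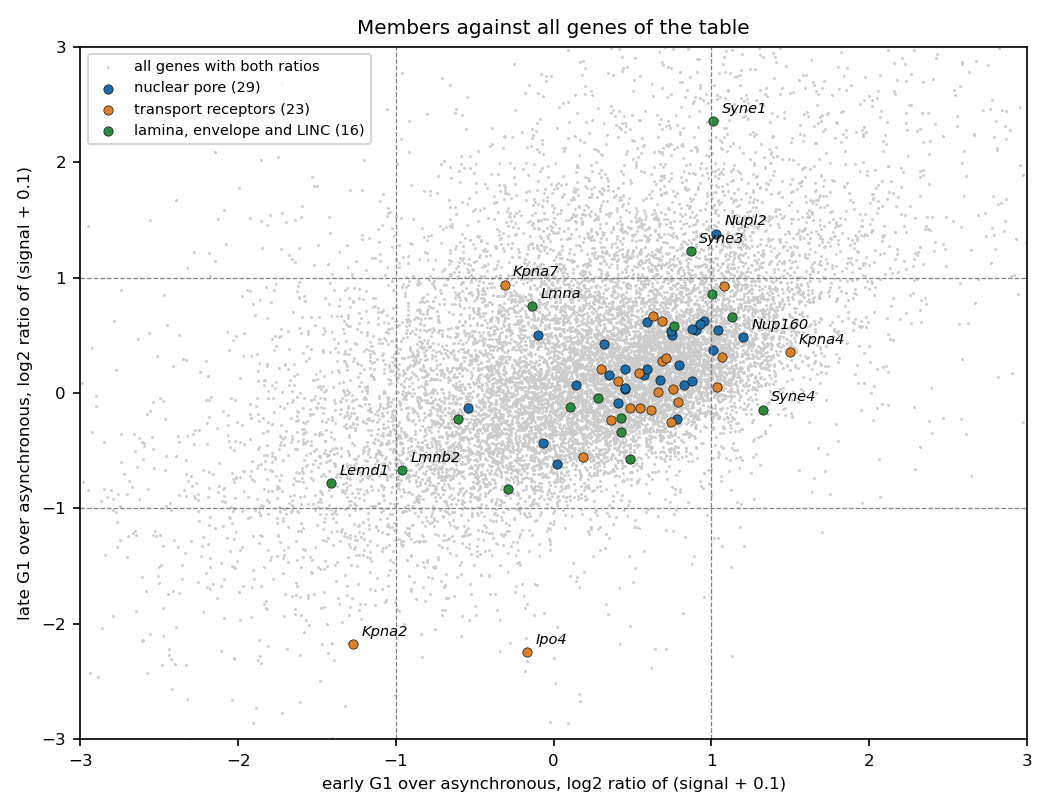
Log2 ratio of (signal + 0.1) in early G1 over asynchronous cells (horizontal axis) and late G1 over asynchronous cells (vertical axis), with grey dots for the 14631 genes that have both ratios, coloured dots for the 68 members and dashed lines at 2-fold. Most members lie right of 0 and between the dashed lines on the vertical axis, with Kpna2 and Ipo4 below and Syne1, Nupl2 and Syne3 above; 326 genes lie outside the axes.

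Other genes of the pathway, whose symbols the choice of members did not take in, came from a list of 36 regulators of Ran, further pore and transport factors and envelope proteins. All 36 were in the table. The gene Man1a encodes a mannosidase and is there by name only, but the counts below include it. Man1a was highest in early G1, at 2.89-fold above asynchronous cells, and 2.22-fold above them in late G1. The highest value was in early G1 for 24 of the 36, against 44.1% of all genes and 55.3% of the genes of like level to the members. Late G1 was lower than early G1 for 29 of 36, against 53.8% of all genes and 65.1% of genes of like level. At 2-fold or more, 2 were lower (7.52% of all genes, 8.68% of genes of like level) and none higher (15.1% and 6.91%). Early G1 was at least 2-fold above asynchronous cells for 7 of 36 and below for 1, against 17.7% and 9.53% of all genes. For genes of like level these shares were 19% and 5.73%. Late G1 was above for 4 and below for 2, against 16.9% and 5.14% of all genes and 11.9% and 4.58% of genes of like level. Cse1l, the exportin that returns importin alpha to the cytoplasm, had 1.28 in mitotic cells, 36.5 in early G1, 21.1 in late G1 and 19.9 for asynchronous cells.

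The Ran cycle itself was mixed. Ran had 8.59 in mitotic cells, 135 in early G1, 148 in late G1 and 96.5 for asynchronous cells. Rcc1, the exchange factor that loads Ran with GTP on chromatin, had 6.02 in mitotic cells, 146 in early G1, 130.1 in late G1 and 210.2 for asynchronous cells. Rangap1, the activator of GTP hydrolysis by Ran, had 1.90 in mitotic cells, 25.6 in early G1, 24.0 in late G1 and 45.4 for asynchronous cells. Rcc1 and Rangap1 were therefore highest in asynchronous cells, as Kpna2 was, while Ran was highest in late G1. Ahctf1, which encodes ELYS, the factor that seeds new pores on chromatin, had 2.89 in mitotic cells, 25.4 in early G1, 14.8 in late G1 and 19.5 for asynchronous cells.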

How the data were processed

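PRO-seq signal was analysed for mouse FUCCI2 induced pluripotent stem cells in 4 groups with 2 libraries each in the labels. The submitters' processing notes name the build GRCm38/mm10 and the tools Bowtie2, cutadapt, SAMtools and Picard, without their versions. The deposited values are a normalized signal per gene, per the file headers; the sources used here do not give the gene assignment, use of strand, scaling or the way libraries were combined. The authors also deposited a temporal class per gene, which is a word and has no unit.

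Ratios were log2 of (signal + 0.1) for genes with a mean signal of at least 0.5, and values of 0 were left out. Calls were made at 2-fold, computed in Python 3.11.15 with pandas 2.3.3. The step was also run on simulated data with changes planted well past 2-fold, in genes with clear signal and little noise. That run checks the code only and does not bear on replicate spread, weak values or a shared drop. With 1 column per group the planned limma fit could not be run, so nothing was tested and no p-value is given. The depth is unknown. Members, role lists, marker lists and motifs were chosen with earlier results of these data known. Every member was counted by role, and 37 are given with all 4 values: those past 2-fold in G1, the extremes of the mitotic share, the lamins, and the extremes of each role in late G1 over asynchronous cells. Genes of like level, with a mean between the 10 and 90 percentiles of the members, were added after seeing the data. Starts are those of the table; symbols and promoters are from RefSeq GRCm38.p6, in which all 68 symbols matched. Protein sequences were not used here.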

Additional observations from a re-analysis of the deposited data

How the results depend on the processing

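No paired analysis was possible because the table has 1 combined column per group, and for the same reason libraries could not be left out in turn. The other 7 alternatives were run. Rescaling had the largest effect on comparisons with mitosis. Of 67 members lower than asynchronous cells, 2 stayed 2-fold lower and 2 became 2-fold higher with equal medians, and likewise with quantile normalization. Early G1 over mitosis had 3 higher and 2 lower in both. Both rescalings give all columns the same median, so they remove by construction a change shared by most genes and cannot test it. For early G1 over asynchronous cells the 12 higher members became 2 with equal medians and 1 with quantile normalization. For late G1 over early G1 the 5 lower members became 3 and 2, and the 2 higher members became 1 with a pseudocount of 0.5 and 1 with a minimum mean of 2.5. Over all genes the 2596 higher in early G1 than in asynchronous cells became 1268 with equal medians and 1364 with quantile normalization, and the 1397 lower became 2169 with equal medians.

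The median member kept its direction relative to the median gene in all 7 alternatives, but several of them could hardly change it. Equal medians multiplies each column by 1 factor, which leaves this difference as it was apart from the pseudocount. All 68 members passed the filter and only Syne4 had a 0, so dropping the filter or keeping zeros barely touched the members. The median member lay 0.17 to 0.31 above on the log2 scale in early G1 over asynchronous cells and 0.20 to 0.54 above in early G1 over mitosis. In late G1 over early G1 it ranged from -0.33 to -0.18. In mitosis over asynchronous cells it ranged from -0.27 to -0.02, and in late G1 over asynchronous cells from -0.08 to -0.02. Genes of like level differed from the median gene in the same directions with the main settings. Their medians lay 0.15 above it in early G1 over asynchronous cells and 0.28 above in early G1 over mitosis. They lay at -0.19 in late G1 over early G1, -0.16 in mitosis over asynchronous cells and -0.06 in late G1 over asynchronous cells. Of 111 ratios of the 37 named members against early G1 or asynchronous cells, none changed sign from a 2-fold call. Equal medians took 12 below 2-fold and brought 3 past it, quantile normalization 16 and 3, a pseudocount of 0.5 took 5 below, and one of 0.02 brought 1 past. The depth is unknown, so the precision of weak genes such as Kpna7 and Syne1 cannot be given.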

Other observations

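The members are long genes. Their RefSeq spans have a median of 43864 bp, against 21332 bp for genes of the table with a span. Across the 68 members the span had a Spearman's rho of 0.39 with the log2 ratio of early G1 over asynchronous cells, 0.37 with late G1 over asynchronous cells and 0.05 with late G1 over early G1. Over all genes the same values were 0.14 (14209 genes), 0.22 (14241 genes) and 0.05 (14246 genes). These are descriptions across genes that share 4 columns, and genes are not independent replicates.

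The 10 members with a CHR match before the start had a median log2 ratio of -0.08 in late G1 over asynchronous cells, with a range from -2.24 (Ipo4) to 0.54, and the 39 members without one had 0.12, from -0.67 to 1.38. Over all genes with a promoter the medians were 0.14 with a match and 0.20 without. The ranges overlap, and the difference among members was not tested.

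The table's start lies over 1000 bp from the RefSeq gene edge and from any RefSeq promoter start used here for 11 members (Nup160, Nup85, Nup35, Nup210l, Kpna7, Xpo4, Xpo7, Lemd1, Lemd2, Syne1 and Syne2). Another gene's start in the table lies within 1000 bp for 13 members, and the RefSeq span of 13 overlaps another coding gene. Whether strand was used in counting is not stated.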
